A study of Drosophila melanogaster with 4 samples.

Results

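The bithorax complex of Drosophila melanogaster, which holds the Hox genes Ubx, abd-A and Abd-B, carried 17 Sfmbt clusters in each of 2 ChIP-seq replicates. A cluster is a stretch that the authors listed as significantly enriched. The clusters described are all those that overlapped 3R:12480000-12810000 in FlyBase release 5, an interval of 330001 bp that makes up 1.18% of the arm. Position alone decided which clusters belong to it, but the interval itself was picked for description with earlier results of these data known. They are 17 of the 6560 clusters listed for replicate 1, 17 of 6508 for replicate 2 and 19 of 8434 in the authors' list for both replicates combined. Chromatin came from nuclei of pooled adult heads of the wild-type strain Oregon-R-modENCODE, of mixed adult age, raised in population cages, and was precipitated with the antibody Q2642 against Sfmbt (dSFMBT in the labels). Every group has this strain, genotype and tissue, and no treatment is labelled. The series holds 2 ChIP samples and 2 inputs, of which input 1 served ChIP replicate 1 and input 2 served ChIP replicate 2. Whether the ChIP replicates are separate collections of flies is not labelled, so their spread may be technical.

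Sfmbt is a Polycomb group protein that pairs with the DNA-binding protein Pho in the Pho repressive complex. Such complexes sit at Polycomb response elements, short DNA elements that keep Hox genes silent in the cells where they were silenced in the embryo. Ubx sets the identity of the third thoracic and the first abdominal segment, abd-A that of the middle abdominal segments and Abd-B that of the posterior ones, and their long regulatory regions hold several of the best-studied response elements of the fly. A head has none of these segments. A head is also a mixture of cell types, so binding in fewer cells and less binding per cell cannot be told apart.

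In the RefSeq gene table at hand, which describes release 6, the order along the arm is Ubx, abd-A, Abd-B, and all 3 symbols were matched. The table lists 13 other genes between Ubx and Abd-B, of which 7 are lncRNAs, 3 are protein coding, 2 are miRNAs and 1 is an antisense RNA. Among them are lncRNA:bxd from the regulatory region of Ubx, the sugar transporter gene Glut3, lncRNA:iab8 from the region between abd-A and Abd-B, and mir-iab-4 and mir-iab-8, which come from opposite strands of the same hairpin. Clusters are on release 5, and positions were not carried between releases, so each cluster is given by its position and is assigned to no single gene or named response element.

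Sfmbt clusters in the bithorax complex were about as frequent as on 3R as a whole, but most had higher scores. Each replicate had 51.5 clusters per Mb in the complex, and the arm had 52.7 in replicate 1 and 51.3 in replicate 2. The score is the authors' enrichment value for a cluster on a log2 scale, so a difference of 1 within a list stands for a factor of 2 in the authors' enrichment ratio. The log2 scale was read from the values, and what the ratio counts is not stated. In replicate 1 the 17 scores ran from 0.56 to 2.58 with a median of 1.44, and in replicate 2 from 0.51 to 2.59 with a median of 1.33. The other clusters of 3R had medians of 0.77 in replicate 1 (1454 clusters) and 0.71 in replicate 2 (1414 clusters). The complex was thus higher by 0.65 ± 0.041 (SD, n = 2), which is a ratio 1.57 ± 0.044 times that of the other clusters. In replicate 1, 12 of the 17 scored above the median of all 3R clusters, and in replicate 2, 14 of 17 did, where 50.0% of the arm's clusters do by definition. With 2 replicates no test over samples was made, and these values are descriptions.

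The same sites were listed in both replicates. Of the 19 clusters in the combined list, 17 overlapped a cluster in each replicate by at least 1 bp, or 89.5%, against 69.9% of the 1803 combined-list clusters of 3R. All 17 clusters of replicate 1 had a partner in replicate 2 and the reverse, against 88.0% and 91.8% on 3R, and each had a single partner. The remaining 2 clusters of the combined list, at 3R:12807110-12808322 and 3R:12809217-12810538, were in neither replicate's list. They were the narrowest of the 19, at 1213 and 1322 bp, and scored 0.36 and 0.24.

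**Figure D1:**
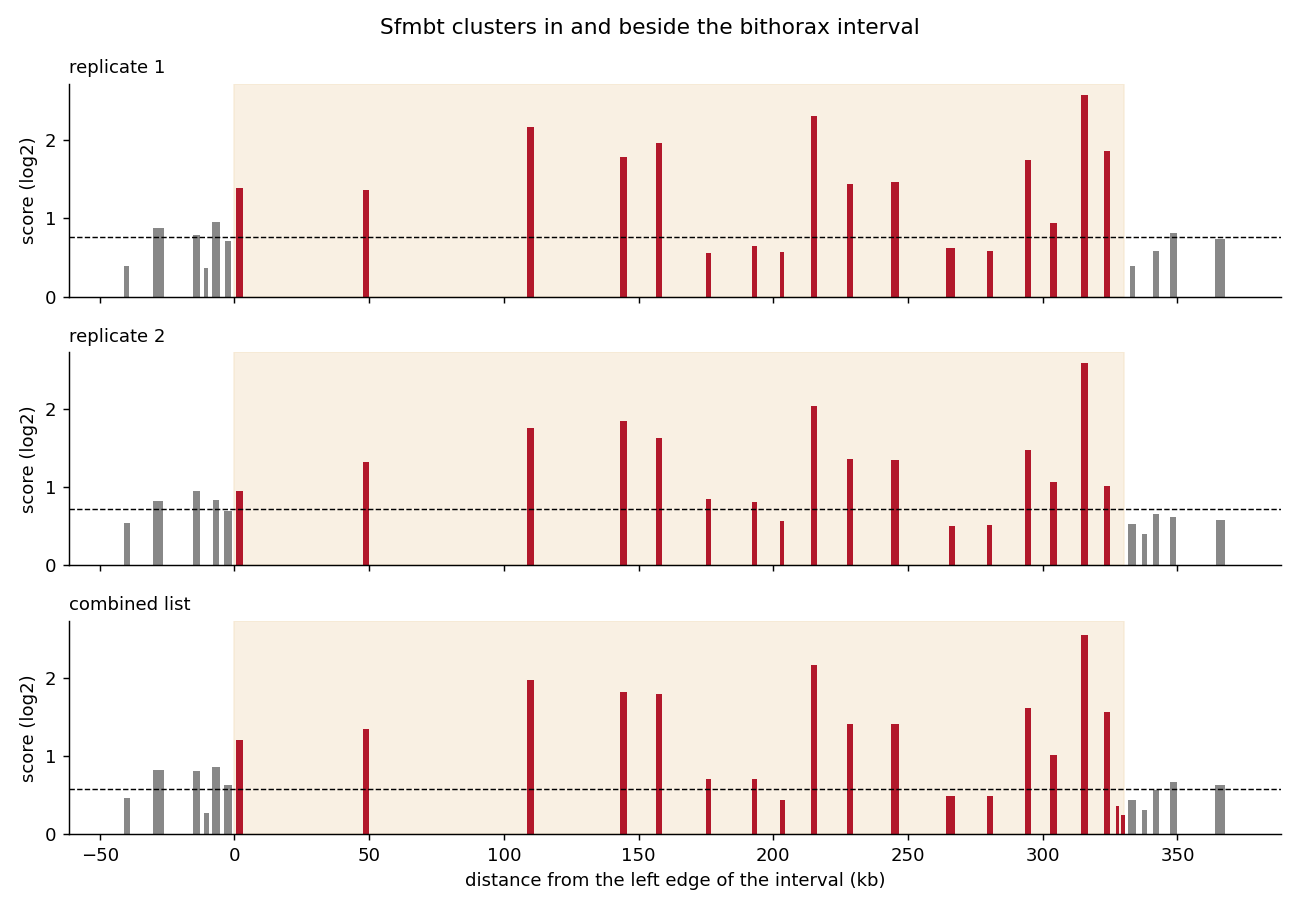
Each bar is 1 Sfmbt cluster drawn at its width, with its score (log2) on the vertical axis and the distance from the left edge of the bithorax interval in kb on the horizontal axis, for replicate 1, replicate 2 and the combined list. Red bars overlap the interval (shaded), grey bars lie outside it and the dashed line is the median score of 3R in that list, which 12 of 17 red bars exceed in replicate 1 and 14 of 17 in replicate 2.

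The strongest site of the complex was also among the strongest of the arm. The cluster at 3R:12794122-12796818, near the right end of the interval and 2697 bp wide, scored 2.58 in replicate 1 and 2.59 in replicate 2 (mean 2.59 ± 0.012, SD, n = 2). Among clusters of 3R it ranked second of 1471 for replicate 1, highest of 1431 for replicate 2 and second of 1803 for the combined list. Its 2 replicate scores lay above every other score of the complex. The next was the cluster at 3R:12693825-12696386, with 2.31 and 2.04 (2.18 ± 0.19), with rank 8 on the arm for replicate 1, rank 4 for replicate 2 and rank 7 for the combined list. The cluster at 3R:12588535-12591080 scored 2.17 and 1.75 (1.96 ± 0.30) and ranked 12, 18 and 11 in these lists. These last 2 sites overlapped in their replicate scores, so their order is not settled.

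Another pair of strong sites lay near the middle of the interval, 10908 bp apart. The cluster at 3R:12623198-12625637 scored 1.79 in replicate 1 and 1.85 in replicate 2 (1.82 ± 0.043), and that at 3R:12636546-12638822 scored 1.96 and 1.63 (1.79 ± 0.24). Their scores overlapped. Towards the right end, the cluster at 3R:12773406-12775583 scored 1.75 and 1.48 (1.62 ± 0.19). Right of the cluster at 12693825 were 2 sites of nearly equal score. The cluster at 3R:12707282-12709517 scored 1.44 and 1.36 (1.40 ± 0.059), and that at 3R:12723686-12726686 scored 1.47 and 1.34 (1.41 ± 0.089).

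In 1 strong cluster the replicates stood far apart. At 3R:12802636-12804939 the score was 1.86 in replicate 1 and 1.02 in replicate 2 (1.44 ± 0.60), with ranks of 27 and 300 on the arm. It was the only one of the 17 with a gap above 0.5, against 4.85% of the 1238 clusters of 3R with a single partner each way. With the 8 sites above, it completes the 9 clusters of the complex among the highest 5% of combined-list scores on 3R. These are 9 of 19 (47.4%), against 5.05% of the arm (91 of 1803), and the complex held 9.89% of all such clusters. In the replicates' own lists the count was 7 of 17 in replicate 1 and 6 of 17 in replicate 2. The share of the arm was 5.03% in each, and 6 clusters passed in both. Those at 12707282 and 12723686 passed in neither, and that at 12802636 passed only in replicate 1. Among the highest 1% were 3 of 17 clusters in each replicate, against 1.02% of the arm in replicate 1 and 1.05% in replicate 2.

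Of the other 8 reproducible clusters, 3 had mean scores above 1. The cluster at 3R:12527581-12529881, at 1.37 and 1.33 (1.35 ± 0.030), was just under the limit of the highest 5% of the combined list. The leftmost cluster, at 3R:12480457-12483147, scored 1.39 and 0.95 (1.17 ± 0.31), and that at 3R:12782680-12785249 scored 0.95 and 1.07 (1.01 ± 0.090). The remaining 5 had replicate scores from 0.51 to 0.85. All of them lay below the 3R median in replicate 1 (0.77). In replicate 2, where the 3R median was 0.72, those at 12654898 and 12672089 lay above it and the others below. The 5 lay in 2 runs, of which the first has 3 clusters, at 12654898 (mean 0.71), 12672089 (0.73) and 12682335 (0.57). The second has 2, at 12743988 (0.57) and 12759202 (0.55). The lowest replicate score of the 12 stronger clusters, 0.95, was above the highest of the 5 weaker ones, although this split was chosen after the values were seen. In order of mean score, 14 of the 16 steps from a cluster to the next had overlapping replicate scores. The exceptions were the step below the strongest site and the step between the 12 and the 5. In the combined list, the enrichment ratio of the strongest of the 17 was 4.35 times that of the weakest.

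No cluster in the complex was wider than 3363 bp, whereas the far more numerous clusters on 3R reached 32802 bp in the combined list. Of the 1244 reproducible clusters of 3R outside the interval, 811 lay within the width range of the 17. The median width was close to that of the arm. It was 2318 bp against 2221 bp on 3R in replicate 1 and 2239 bp against 2178 bp in replicate 2. In the combined list the 17 were 2006 to 3363 bp wide with a median of 2304 bp, against 2522 bp for the reproducible clusters of 3R. The widest of the 17, at 3R:12743988-12747350, was one of the weakest, with scores of 0.62 in replicate 1 and 0.51 in replicate 2 (0.57 ± 0.081). It was 3360 bp wide in replicate 1 and 1961 bp in replicate 2, where it began 1391 bp further right. Elsewhere in the complex no edge shifted by more than 219 bp. Both edges lay within 100 bp of each other in the 2 replicates at 10 of 17 clusters, against 38.6% of paired clusters on 3R. The median shift was 37 bp at the start and 32 bp at the end, against 77.5 and 73 bp for the paired clusters of 3R. Across the 17, Spearman's rho between width and score was 0.48 in replicate 1 and 0.72 in replicate 2, against 0.76 and 0.78 over all clusters of 3R. These points share their libraries and are given as a description.

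**Figure D2:**
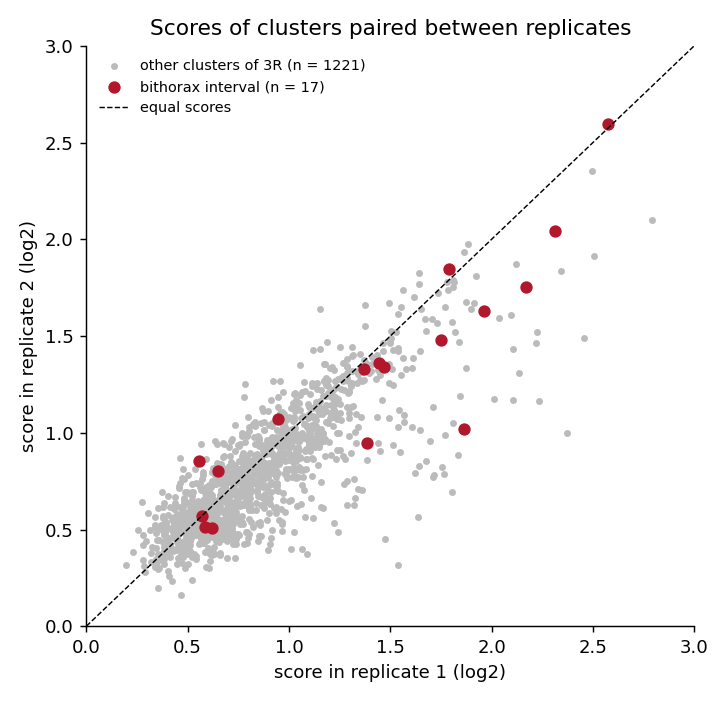
Each point is a cluster of 3R with a single partner in the other replicate, with its score (log2) in replicate 1 on the horizontal axis and in replicate 2 on the vertical axis. The 17 clusters of the bithorax interval are red, the 1221 other clusters are grey, the dashed line marks equal scores, and 12 of the 17 red points lie below it.

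Scores in the complex followed each other across the replicates. Over the 17 clusters, Pearson's r was 0.913 and Spearman's rho 0.887, against 0.825 and 0.814 over the 1238 paired clusters of 3R, as a description across clusters of the same libraries. Replicate 1 was higher at 12 of 17, against 62.0% on 3R. The mean difference of 0.14 (SD 0.27 between the 17 clusters) stood beside 0.07 (SD 0.22) for the 1221 other pairs of the arm. The scaling constant of each list is not stated, so for a shift common to all clusters scaling and binding cannot be told apart.

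Clusters stood apart from each other, most of all in the left part of the interval. Split by length into 3 equal parts from left to right, the interval held 3, 6 and 8 of the 17 clusters, with median mean scores of 1.35, 1.26 and 1.40. The widest gap was 58653 bp, between the clusters at 12527581 and 12588535, and the next were 44433 bp to its left and 32117 bp to its right. Wider gaps occurred elsewhere, and the widest one here ranked 65 of the 1802 between combined-list clusters of 3R. In the equally long stretches next to the interval, the widest gap between reproducible clusters was 74238 bp on the left and 59189 bp on the right. From 12636546 to 12804939 the gaps ran from 5817 to 17301 bp. Of the 17 clusters, 16 had no other reproducible cluster within 5 kb, against 39.2% of 1261 on 3R, and the exception was the leftmost, with a neighbour outside the interval. The median distance to the nearest reproducible cluster was 10895 bp in the complex and 3564 bp on 3R.

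Isolated clusters elsewhere on the arm were not as strong. Outside the interval, the 478 reproducible clusters of 3R with no other within 5 kb had a median combined score of 0.77, with quartiles of 0.55 and 0.99, and the 766 with closer neighbours had a median of 0.73. The 312 isolated ones as wide as those of the complex had a median of 0.75, and 7.05% of them reached the median of the complex, 1.40.

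**Figure D3:**
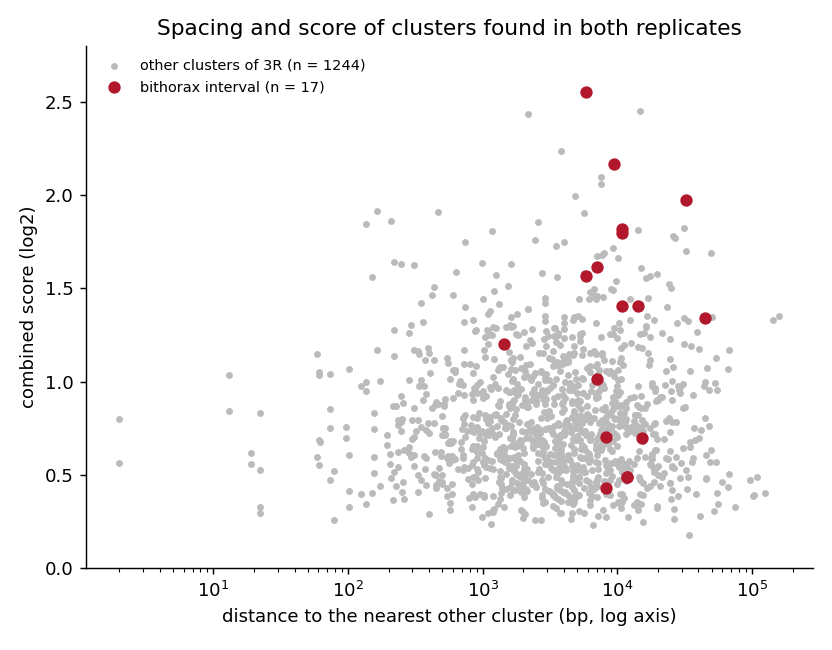
Each point is a cluster of 3R found in both replicates, with the distance to the nearest other such cluster in bp (log axis) on the horizontal axis and the combined score (log2) on the vertical axis. Of the 17 bithorax clusters (red), 16 lie beyond 5 kb from the nearest other, and of the 1244 other clusters (grey) 5.47% reach the median score of the red points, 1.40.

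The interval was then set against windows of its own length, laid end to end along 3R from its edges. There were 83 such windows, the interval among them. By number of reproducible clusters it was ordinary, with 17 against a median of 14 and a range of 6 to 35, and 21 windows held more. By covered length it was also ordinary, at 12.6% against a median of 12.7%, which placed it 45 of 83. By score it came first. Its median combined score of 1.40 was the highest of the 83, followed by 1.13 in a window with 10 clusters at 3R:24360036-24690036, and the median window had 0.74. It also held the highest single score of the reproducible clusters and the most clusters among the highest 5% of these, 7 against 5.08% of the arm (64 of 1261). The next window had 4, and 43 of the windows had 0. Windows share an arm and are not replicates, neither gene density nor mappability was taken into account, and no p is given.

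The interval kept the first place by median score in each replicate's own list, where the medians of 1.44 and 1.33 stood against 0.77 and 0.71 for the median window. It was also first of 354 windows on 2L, 2R, 3L, 3R and X with at least 3 clusters. The highest single score was first in replicate 2 and second in replicate 1, whose strongest 3R cluster lay elsewhere with 2.79. Width gave no steady picture. The interval's median width was 72 of 83 from the widest in the reproducible set but 31 of 83 in replicate 1 and 29 of 83 in replicate 2.

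**Figure D4:**
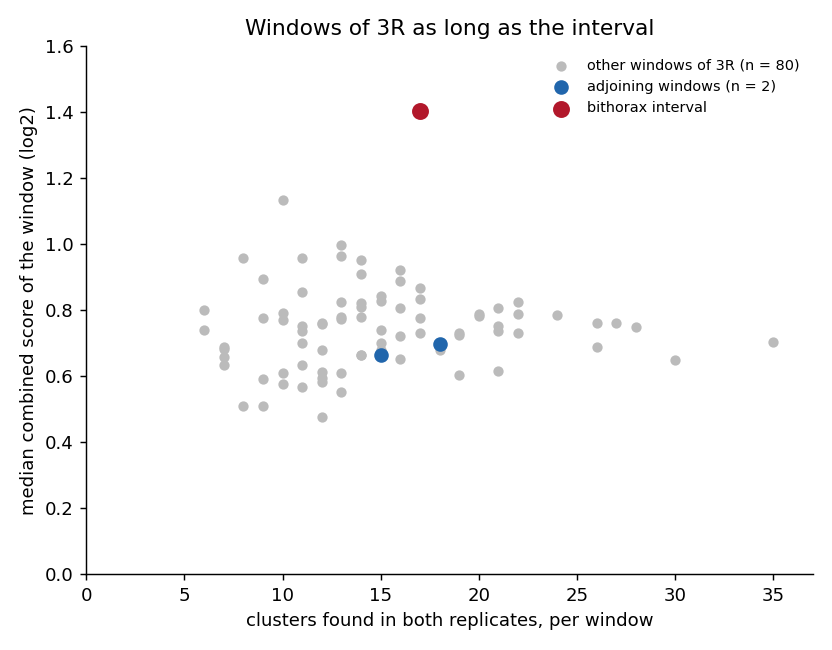
Each point is 1 of the 83 windows of 3R as long as the bithorax interval, with the number of clusters found in both replicates on the horizontal axis and their median combined score (log2) on the vertical axis. The interval (red) has 17 clusters and a median of 1.40, above all other windows, while the adjoining windows (blue) have medians of 0.70 and 0.66.

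Next to the interval, clusters were about as many and had lower median scores. The adjoining window on the left held 18 reproducible clusters with a median of 0.70, of which 1 was among the highest 5%. That cluster, at 12398512, scored 2.06 in the combined list, which few clusters of the complex exceeded. Its replicates stood far apart, at 2.46 in replicate 1 and 1.49 in replicate 2. The window on the right held 15 with a median of 0.66, of which 0 were among the highest 5%. In the 20 kb to the left of the interval, 4 combined-list clusters scored 0.27 to 0.86, and in the 20 kb to the right 4 scored 0.31 to 0.66. The last cluster outside on the left, at 3R:12476134-12479025, scored 0.63, and the first inside, 1431 bp further on, scored 1.20. In replicate 1 that first inside cluster scored 1.39, above all 4 in the 20 kb to the left (0.36 to 0.95). In replicate 2 it scored 0.95, no higher than the strongest of the 3 there (0.69 to 0.95), so the rise at this edge was not seen in both replicates. On the right the cluster at 12809217 (0.24) crossed the edge, and the first outside, at 3R:12811484-12814450, scored 0.44. Between the strong cluster at 12802636 and that point lay only the 2 weak clusters that neither replicate's list has.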

How the data were processed

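The authors deposited 3 lists of enriched clusters, 1 per ChIP replicate, called per sample, and 1 for both combined, in FlyBase release 5 coordinates per the file headers. The submitters' processing notes name Bowtie 0.12.7. For the caller, its threshold, read filters and the way of combining, no value was given in the sources used here. Read depth is unknown. The deposited score is a log2 value, which no header states. Raised to base 2 and divided by 1 constant per list, 91.9% of the scores of replicate 1, 89.4% of replicate 2 and 74.1% of the combined list equalled whole-number ratios with a denominator of at most 300 (relative tolerance 1e-11). With base e or 10 at most 0.58% did.

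Lists were used as deposited. Shared meant 1 bp of overlap, and reproducible meant found in both replicates. A replicate's score was that of its highest overlapping cluster. Medians needed 3 clusters per window. All clusters of the interval were described. Those in the highest 5% of combined scores on 3R, and the widest, got full values. The interval and the comparisons were chosen with earlier results of these data known. Motifs in promoters were planned and not run, since no sequence table was at hand. Tables were made with pandas 2.3.3 and NumPy 2.4.6 under Python 3.11.15, correlations with SciPy 1.17.1 and figures with matplotlib 3.10.9. The overlap and window counting was tested on simulated data.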

Additional observations from a re-analysis of the deposited data

How the results depend on the processing

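The 17 clusters found in both replicates stayed within 1.5 times under every alternative. They ran from 12 with only clusters at or above the median of their list to 23 with the edges moved outward by 20 kb. With 1 replicate left out they were 17, but that drops a requirement and cannot lower the count. First place by median score, and by number of clusters in the highest 5%, held in single replicates and over the large arms and X. Both also held with clusters at or above the median and, with ties among overlapping windows, with windows started every 10 kb. Window ranks were not computed with the edges moved, so first place is not shown to hold for other edges. The covered share of 11.9% (mean of the replicates) became 9.43% with only clusters at or above the median, 15.0% with the edges moved outward and 11.0% with them moved inward by 20 kb, and 11.6 to 12.2% with 1 replicate left out. The median of mean scores, 1.40, was 1.33 to 1.44 with 1 replicate left out and 0.66 with the 3R median of each list subtracted. That subtraction put the mean scores of 5 clusters below 0, at -0.037 (12654898), -0.015 (12672089), -0.17 (12682335), -0.18 (12743988) and -0.19 (12759202). The clusters at 12654898 and 12672089 were below the 3R median in replicate 1 but above it in replicate 2. Windows with more clusters than the interval were 25.3% of all, 30.7% with windows every 10 kb, 31.9% over the large arms and X, 14.5% with clusters at or above the median and 39.8 to 41.0% in single replicates. For covered share these were 53.0%, 60.2% over those arms and 37.35% with clusters at or above the median. For the highest score they were 0%, 1.12% over those arms and 0 to 1.205% in single replicates. For median width they were 85.5%, 83.5% with windows every 10 kb, 93.9% with clusters at or above the median and 33.7 to 36.1% in single replicates. The highest 1% of combined-list scores on 3R held 4 of the 19 clusters, against 1.05% of the arm (19 of 1803). The highest 5% held 9 of 19, against 5.05% of the arm. With 1 replicate left out, the highest 5% held 6 to 7 of 17, against 5.03% of the arm. The cause of these shifts was not tested. No paired analysis was possible because no result comes from a test and the inputs have no list of their own. Without read counts, the precision of a single score is unknown.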
